A study of Glycine max with 108 samples.

Results

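The 60 genes described here are the soybean leaf genes whose level lay furthest below the leaf control in every one of 17 stress treatments. They are 60 of 28004 leaf genes that could be scored, and of 57147 features in each of the tissue tables. A gene was scored if its ID had the GLYMA form and its mean over the leaf libraries was at least 1 FPKM, a fragment count corrected for transcript length and for the size of the library. Genes with both 0 and at least 10 FPKM inside a group were dropped. For each gene the mean log2(FPKM + 1) of each treatment was taken from that of the control, and the score was the smallest of the 17 differences, so that a score above 0 means that all 17 treatment means lay below the control mean. The 60 highest scores were kept. The leaf values thus chose the genes, and everything said of leaf against control is a description with no test. The flower libraries were not used in the choice, and they are where the genes were tested.

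The samples were leaves and flowers of soybean (Glycine max, cultivar Magellan) plants 31 days old, with material of 5 to 7 plants pooled in each sample. All groups, the controls included, were grown from seeds coated with a Bradyrhizobium inoculum, under 14 h of light and 10 h of darkness. The stressed groups were 5 single stresses, 6 pairs, 4 triples, a 4-stress combination and a 5-stress combination, and each tissue had an unstressed control. The single stresses were salinity (15 mM NaCl), acidity (pH 4), water deficit (irrigation at 30% of the transpirable water), low phosphate (reduced by 90%) and cadmium (300 µM). The pairs, triples and the 4-stress combination joined all of these but cadmium, and the 5-stress combination added cadmium. Acid and phosphate levels are stated for the single stresses but not for the combinations. Each of the 18 groups per tissue was labelled with 3 replicates, but 4 columns held the average of the other columns of their group and were left out. That left 51 stressed and 2 control libraries in leaf, and 48 stressed and 3 control libraries in flower.

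Plants meet drought, salt, acid soil, nutrient shortage and toxic metals with partly shared responses, in which growth slows, stomatal opening and photosynthesis are adjusted, and protective proteins and solutes accumulate. Genes that are less abundant under many unrelated stresses are commonly found among those for growth, cell wall extension and photosynthesis. Flowers and leaves of a stressed plant can respond differently, and differences in transpiration between the organs have been described in soybean. The IDs were not matched to gene names in the tables used here, so no gene below is given a name or a role, and genes are grouped by level and by behaviour.

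In leaf, the scores ran from 1.26 at rank 1 to 0.327 at rank 60 on the log2(FPKM + 1) scale, with a median of 0.388. Only 3 genes had a score of at least 1, and 18 had one of at least 0.5. The 3 genes just inside the limit were GLYMA_13G311500 at 0.329, GLYMA_02G073700 at 0.327 and GLYMA_01G009500 at 0.327. The 3 just outside it were GLYMA_01G161700 at 0.325, GLYMA_11G188500 at 0.322 and GLYMA_04G091900 at 0.321, so the limit falls where scores are closely spaced. Of all scored genes, 2731 (9.75%) had all 17 treatment means below the control, and 1165 (4.16%) had all of them above it. When each leaf library was scaled to the median ratio of the leaf libraries, these counts became 1788 and 1952, so which direction was the more common depended on the scaling. The 60 genes all kept a positive score under that scaling, and 52 of them stayed among the 60 highest.

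**Figure D1:**
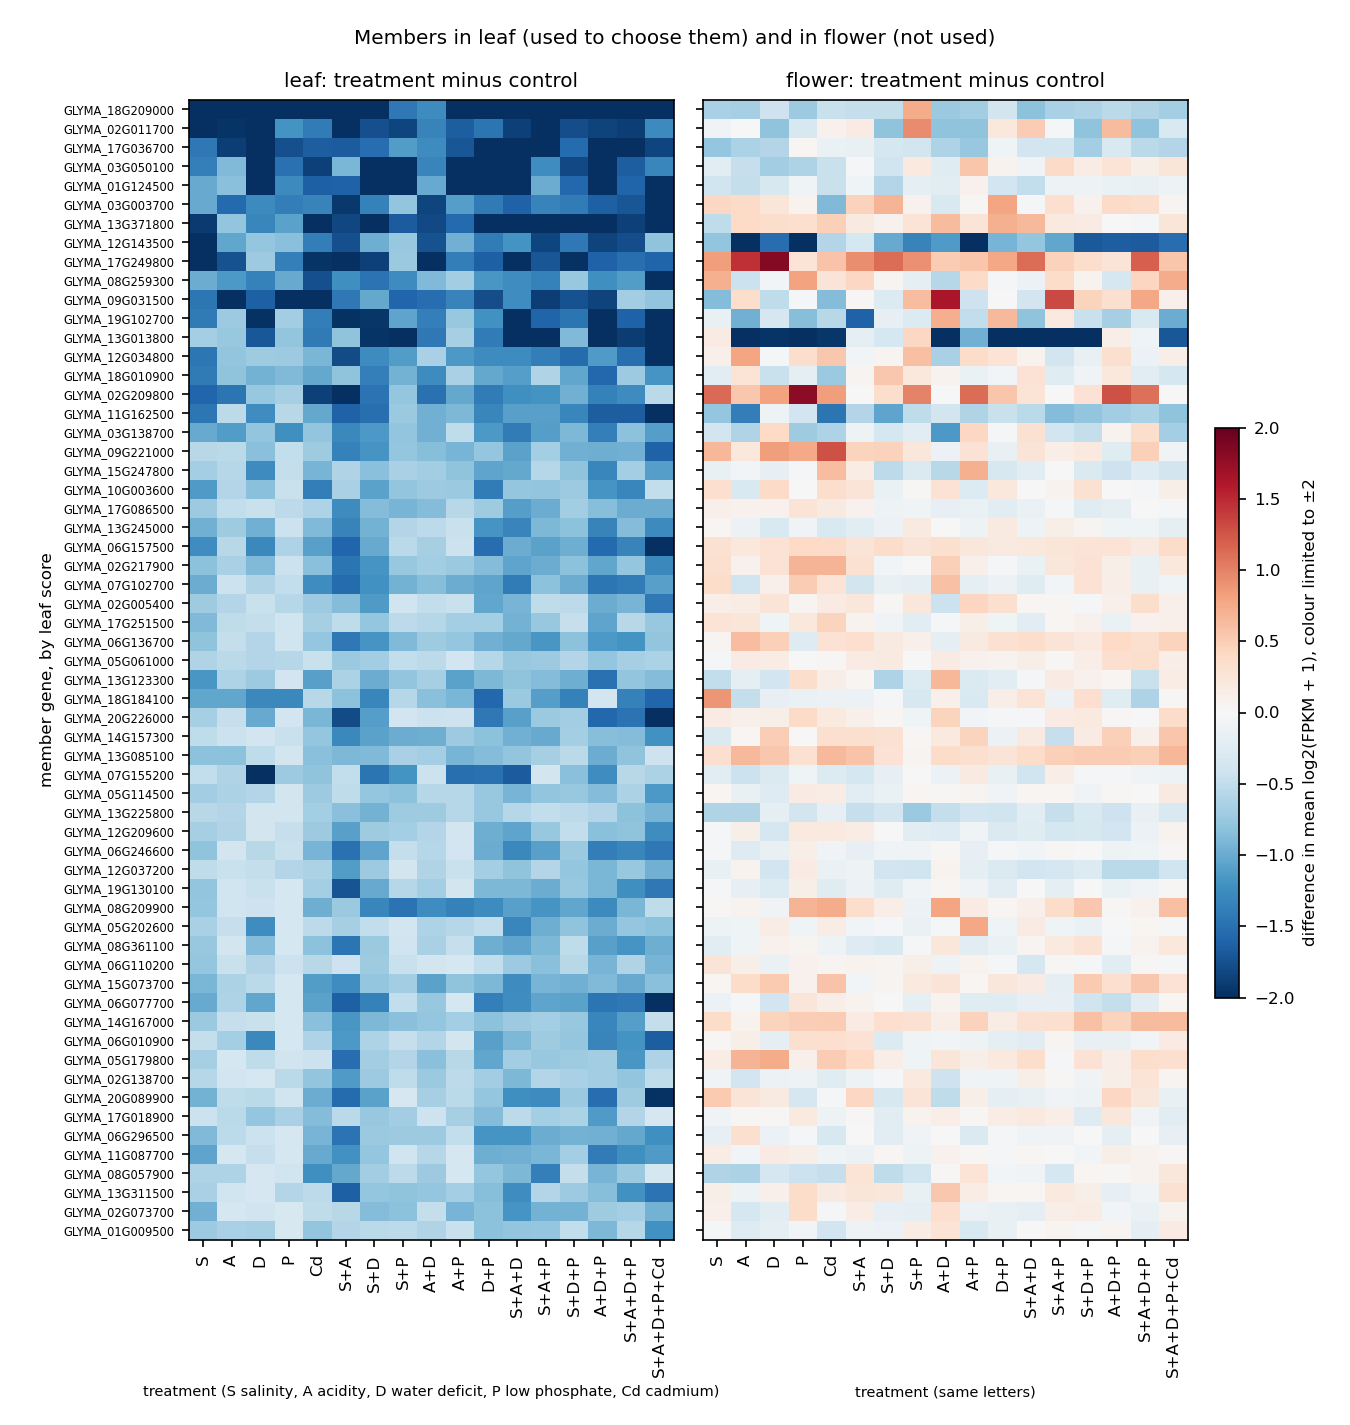
Difference in mean log2(FPKM + 1), stressed group minus control, for the 60 genes (rows, by leaf score) in the 17 treatments (columns), in leaf at the left and in flower at the right; colour is limited to ±2. All leaf cells are below 0 because the genes were chosen that way, whereas the flower cells have a median near 0, with 31 of the 56 genes tested in flower below 0 on average over the treatments.

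Most of the genes were of modest abundance. The leaf control mean was under 5 FPKM for 30 of the 60, between 5 and 10 FPKM for 17, between 10 and 50 FPKM for 9 and at least 50 FPKM for 4. The median control mean was 4.88 FPKM, against 6.07 FPKM over all scored genes. Averaged over the 17 treatments, the difference from control had a median of -0.89 over the 60 genes and of -0.07 over all scored genes, on the log2(FPKM + 1) scale. It lay between -2.49 and -0.60, and 22 genes were at or below -1. In pooled tissue, fewer cells of a type and less RNA per cell cannot be told apart. By their IDs the genes lie on 18 chromosomes, with 7 each on chromosomes 6 and 13. They were not close neighbours, since the nearest pair, GLYMA_17G249800 and GLYMA_17G251500, had 16 listed IDs between them.

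Every leaf difference of a gene uses the same 2 control libraries, and these set how firmly membership can be read. The log2 gap between the control libraries had a median of 0.23 over the 60 genes and 0.13 over all scored genes. It was larger than the score itself for 14 of the 60, and above 1 for 4. With control 1 alone 27 of the 60 stayed among the 60 highest scores, and with control 2 alone 23 did, although 55 kept a positive score with either alone. The other 5 rest on 1 control library. GLYMA_18G209000, which has the highest score of all, had 0.0293 to 20.7 FPKM in stressed leaves (median 0.197), against 0.184 and 48.7 FPKM in control leaves, so that its lower control lies near the stressed median. GLYMA_17G249800 had a median of 5.31 FPKM in stressed leaves, against 43.4 and 10.8 FPKM in control leaves, and GLYMA_18G184100 had 3.03 FPKM against 20.3 and 2.25 FPKM. In all of these a control library lies many-fold from the other. GLYMA_13G085100 had a median of 1.95 FPKM in stressed leaves, against 6.01 and 2.48 FPKM in control leaves, and GLYMA_08G057900 had 2.39 FPKM against 6.13 and 2.94 FPKM. The control libraries also differed from most others in depth: relative depths, estimated from the steps of low values, were 1.15 and 1.22 in the leaf controls within a range of 0.871 to 1.22 over the leaf libraries. The part of depth in the leaf differences was not tested.

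Across single libraries, both leaf controls lay above all 51 stressed libraries for 24 of the 60 genes (40%), and the groups overlapped for 36. Over all scored genes the share was 1.01% (283 of 28004). The rule used this contrast, so nothing is read from the 2 shares. The median gene had 50 of 51 stressed libraries below both controls, 53 genes had at least 45, and the lowest, GLYMA_18G184100, had 15. In 8 genes at least 1 stressed leaf library was listed at 0.

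The 12 genes with the highest scores differ in how cleanly the groups part. GLYMA_17G036700 had 0.394 to 9.19 FPKM in stressed leaves, with a median of 2.57, against 12.5 and 12.6 FPKM in control leaves. GLYMA_03G003700 had 0.377 to 6.64 FPKM in stressed leaves (median 2.65), against 7.65 and 10.5 FPKM in control leaves. GLYMA_19G102700 had 0.354 to 6.49 FPKM (median 3.03) in stressed leaves, against 10.6 and 9.92 FPKM in control leaves. In these genes, and in GLYMA_08G259300 at 0 to 3.01 FPKM (median 0.968) in stressed leaves against 3.92 and 3.10 FPKM in control leaves, no stressed library reached either control. The same held for GLYMA_03G050100 and GLYMA_01G124500, described below.

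The groups overlapped in the other 6. GLYMA_13G371800 had 2.65 to 26.5 FPKM in stressed leaves (median 6.99), against 31.9 and 25.6 FPKM in control leaves, and only 2 stressed libraries reached the lower control. GLYMA_09G031500 had 0.321 to 6.93 FPKM in stressed leaves (median 1.09), against 6.58 and 5.56 FPKM in control leaves. GLYMA_02G011700 was listed at 0 in 25 of the 51 stressed libraries and reached 7.35 FPKM in the highest (median 0.873), against 6.37 and 4.65 FPKM in control leaves. In GLYMA_12G143500, 22 of 51 stressed libraries were at 0 and the highest was at 4.63 FPKM (median 0.831), against 2.29 and 4.90 FPKM in control leaves. These last 2 genes switch between 0 and several FPKM among libraries of stressed leaves, so their group means rest on few libraries. The remaining pair, GLYMA_18G209000 and GLYMA_17G249800, are among the 5 that rest on 1 control library.

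**Figure D2:**
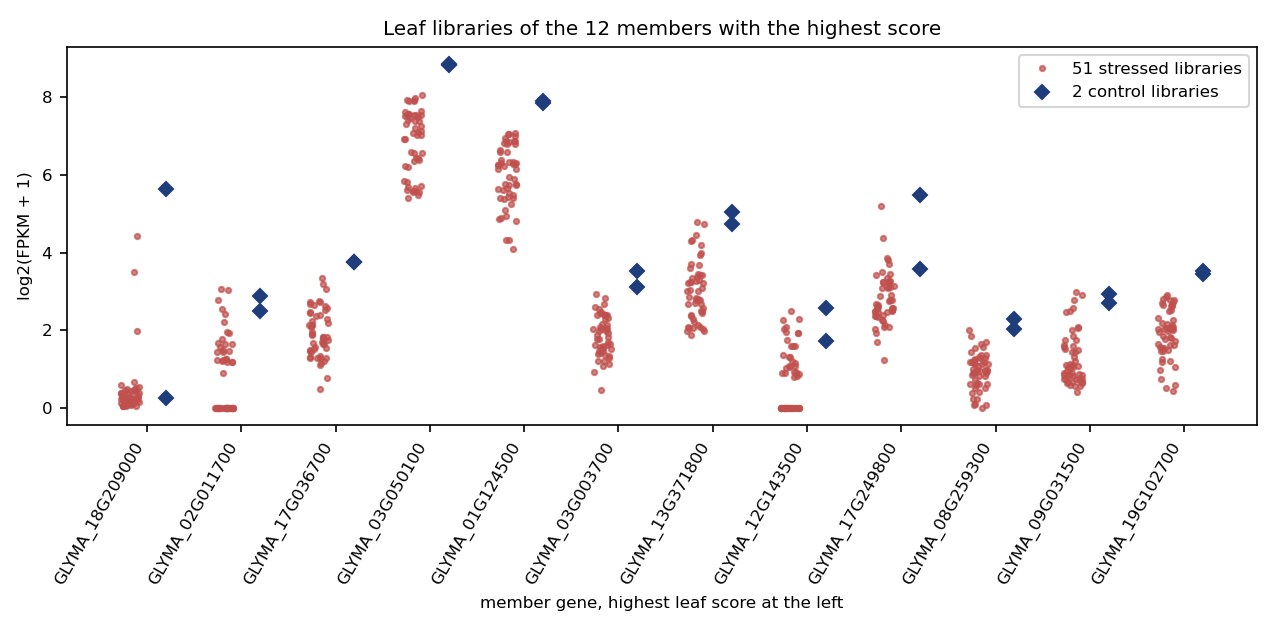
Leaf log2(FPKM + 1) of the 12 genes with the highest score, with 51 stressed libraries (red points) to the left of 2 control libraries (blue diamonds) in each gene. The controls coincide in GLYMA_03G050100 and GLYMA_17G036700, and lie far apart in GLYMA_18G209000, at 48.7 and 0.184 FPKM.

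GLYMA_13G013800, at rank 13 and named after its values were seen, is a gene whose estimates are uncertain. In leaves under salinity, water deficit and low phosphate its 3 libraries had 0.000175, 0.973 and 7.43 FPKM, and in leaves under the 5-stress combination they had 2.18e-04, 2.28e-05 and 8.00e-05 FPKM. The controls had 4.74 and 2.90 FPKM. Values this small are not whole reads on a gene, and replicates of a treatment lay several orders of magnitude apart. Whether its reads were divided with a similar gene was not tested.

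The size of the leaf difference varied with the treatment. The median over the 60 genes was -0.68 averaged over the 5 single stresses, -0.92 over the 6 pairs, -1.02 over the 4 triples, -1.07 in the 4-stress and -1.19 in the 5-stress combination. The order by number of stresses hides wide differences between treatments of the same number. Low phosphate alone had a median of -0.48 and acidity alone -0.60, whereas salinity alone had -0.85 and cadmium alone -0.91. Of the pairs, salinity with acidity had a median of -1.27, and acidity with low phosphate had -0.68. Low phosphate together with acidity and water deficit had -1.23. Over all scored genes, the same treatment medians lay between -0.24 in that triple and 0.10 in the 5-stress combination. Low phosphate was the treatment nearest to control, and so the one that set the score, for 23 of the 60 genes. The largest difference was in the 5-stress combination for 17 genes, in salinity with acidity for 15 and in acidity, water deficit and low phosphate for 11. Each of the 17 treatments shares the control libraries with the others, so the medians are set side by side and not compared by a test.

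The 3 genes with the highest leaf control level stand well above the rest. GLYMA_03G050100 had 41.4 to 266 FPKM in stressed leaves (median 134), against 460 and 457 FPKM in control leaves. GLYMA_07G155200 had 84.6 to 305 FPKM in stressed leaves (median 209), against 367 and 365 FPKM in control leaves. GLYMA_01G124500 had 15.9 to 134 FPKM in stressed leaves (median 70.2), against 230 and 238 FPKM in control leaves. In all 3 the controls nearly coincide and no stressed library reaches them. The fourth, GLYMA_08G209900, had 20.7 to 59.4 FPKM in stressed leaves (median 30.0), against 66.2 and 62.1 FPKM in control leaves, also with no overlap.

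Within a treatment the replicates of these genes lay close together, and the treatments differed from each other by several-fold. GLYMA_03G050100 had 45.9, 41.4 and 46.0 FPKM in leaves under water deficit, against 460 and 457 FPKM in control leaves, which is its largest difference at -3.34 (log2). It had 185, 186 and 185 FPKM under the 5-stress combination and 241, 240 and 266 FPKM under acidity, its smallest difference at -0.88. Adding stresses therefore did not always go with a lower level: the triple of salinity, acidity and water deficit had 47.5, 47.3 and 47.0 FPKM, whereas the 4-stress combination had 146, 138 and 151 FPKM. GLYMA_07G155200 was also lowest under water deficit, at 103, 88.4 and 84.6 FPKM, and it was nearest to control under salinity, acidity and low phosphate, at 277, 267 and 305 FPKM, against 367 and 365 FPKM in control leaves. GLYMA_01G124500 was lowest under salinity, acidity and water deficit, at 19.1, 18.9 and 15.9 FPKM, and highest of the stressed groups under acidity, at 132, 127 and 134 FPKM.

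The leaf treatment means of these 3 genes moved together. Pearson's r over the 17 leaf treatment means was 0.927 for GLYMA_03G050100 with GLYMA_07G155200, 0.879 for GLYMA_03G050100 with GLYMA_01G124500 and 0.874 for GLYMA_07G155200 with GLYMA_01G124500. GLYMA_08G209900 had r between 0.233 and 0.403 with the 3, over the same 17 means. In flower, the r of the 3 pairs over 17 treatment means was 0.685, 0.598 and 0.692 in the same order. The points share their libraries within a treatment, and the values are descriptions.

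**Figure D3:**
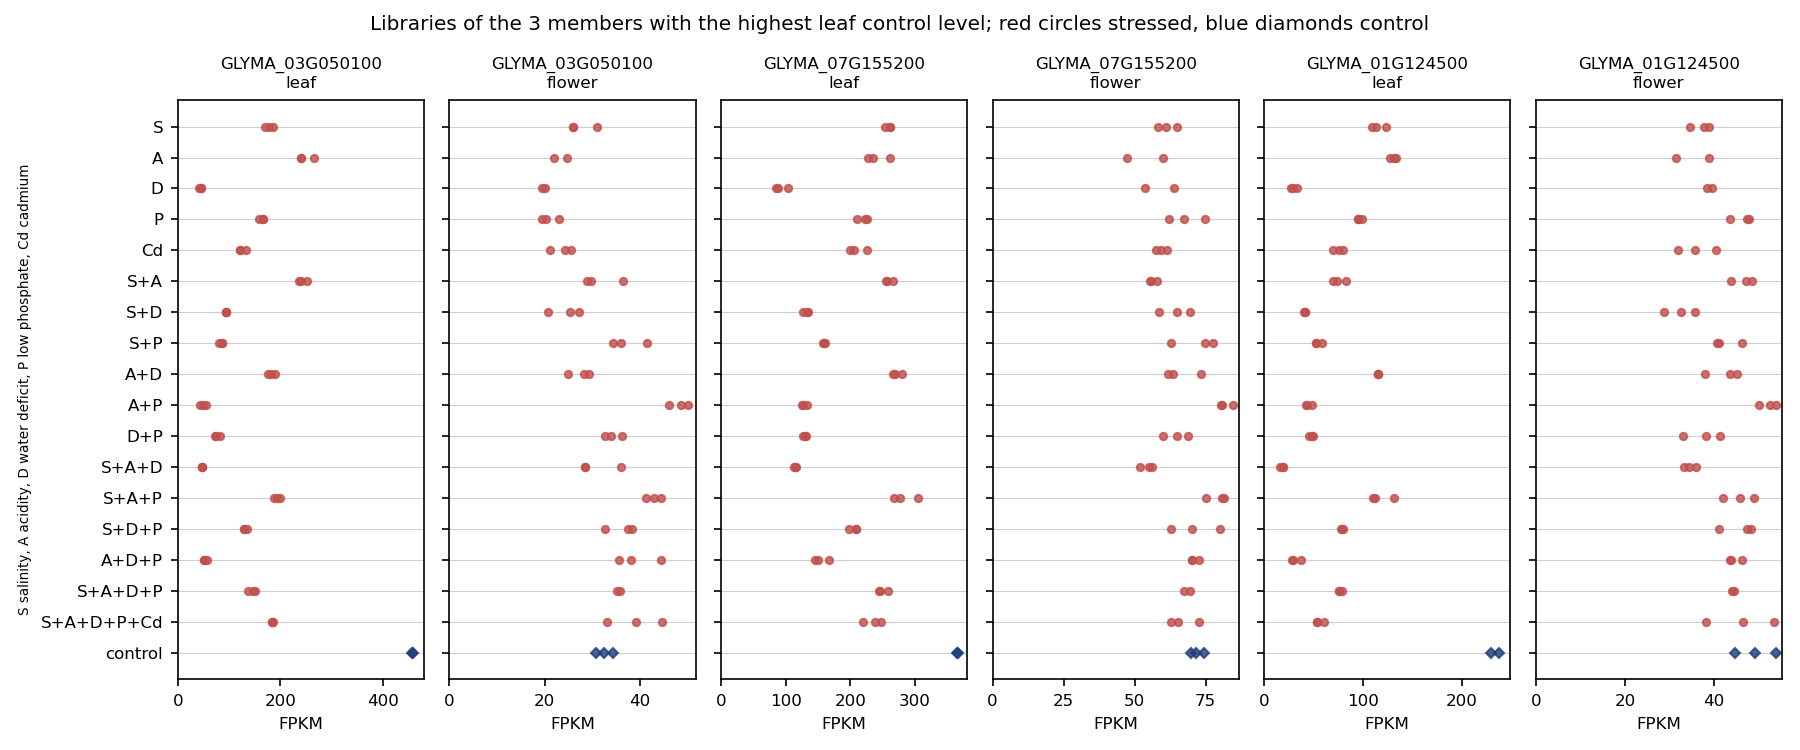
FPKM in each library of the 3 genes with the highest leaf control level, with leaf and flower in separate panels and scales; rows are the 17 treatments (red circles) above the control (blue diamonds at the bottom). In leaf every stressed library lies below the controls, whereas in flower the stressed libraries lie on both sides of the control in GLYMA_03G050100 and GLYMA_07G155200.

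The flower libraries were used to ask a narrower question. It was whether genes with a mean below control in every leaf treatment were also lower in stressed flowers. Of the 60 genes, 56 had a flower mean of at least 1 FPKM and were tested among 33792 flower features. The other 4 had flower means between 0.157 and 0.931 FPKM and were not tested. The measure was the mean of the 17 treatment means minus the control mean on the log2(FPKM + 1) scale, tested with limma (Benjamini-Hochberg adjustment over all 33792 features). Stressed flowers were called lower in 3 of the 56 genes, beside 3.86% of all features tested, and higher in 1, beside 7.07%. The difference was below 0 in 31 of the 56 genes (55.4%) and in 43.9% of all features. Its median was -0.01 over the 56 genes and 0.02 over all features. The sign of the median over the genes was not stable. It was 0.04 without replicate 2, where 57 of the 60 genes were tested, and 0.01 without flower control 2. Under median-ratio scaling the medians were -0.04 over the 56 genes and -0.005 over all features. The share of all features below 0 therefore also depends on the scaling.

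The genes called lower on average in stressed flowers were GLYMA_01G124500, GLYMA_11G162500 and GLYMA_13G225800. GLYMA_01G124500 had 28.7 to 53.7 FPKM in the 48 stressed flower libraries (median 41.6), against 53.9, 49.1 and 44.8 FPKM in control flowers. Its difference was -0.25 (SE 0.073, limma adjusted p = 0.0210), with 16 of 17 treatment means below the control. GLYMA_11G162500 had 0.620 to 5.31 FPKM in stressed flowers (median 2.53), against 3.00, 5.49 and 5.68 FPKM in control flowers, a difference of -0.70 (SE 0.21, limma adjusted p = 0.0224). All 17 of its flower treatment means lay below the control, as they did in leaf, where it had 0 to 4.14 FPKM in stressed libraries (median 0.927) against 3.55 and 3.20 FPKM in control libraries. GLYMA_13G225800 had 0.348 to 1.89 FPKM in stressed flowers (median 1.14), against 1.83, 1.74 and 1.64 FPKM in control flowers. This gene lies near the filter of 1 FPKM, with a mean of 1.15 FPKM over the flower libraries. Its difference was -0.39 (SE 0.12, limma adjusted p = 0.0338), again with all 17 treatment means below the control. In each of the 3 genes the stressed and control flower libraries overlapped.

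The gene called higher was GLYMA_13G085100, with 5.39 to 12.6 FPKM in stressed flowers (median 8.46), against 8.22, 5.47 and 4.94 FPKM in control flowers. The difference was 0.43 (SE 0.14, limma adjusted p = 0.0313), and all 17 flower treatment means lay above the control. It is among the 5 genes whose leaf score rests on 1 control library, and without those 5 no gene was called higher in flower. None of the 4 calls was kept under every omission of libraries. Leaving out each replicate number in turn gave 0 to 1 genes called lower and 0 to 2 called higher, and leaving out each flower control library in turn gave 0 to 1 and 0 to 2.

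How closely the flower data bound the change depends on the size of the fall in question. The 95% interval of the flower mean difference reached, at the median, 0.27 to either side. It excluded a fall of 0.327, the lowest leaf score among the 60 genes, for 33 of the 56 genes. That score is a smallest difference over the treatments, whereas the flower value is a mean over them. The leaf mean difference nearest to 0 among the 60 genes was -0.60. On this scale a gene under 1 FPKM in control flowers cannot fall by 1. The interval excluded a fall of that size for 51 of the 56 genes. Of the other 5, GLYMA_12G143500 and GLYMA_13G013800 had the most negative differences. GLYMA_12G143500 had 0 to 14.3 FPKM in stressed flowers (median 2.21, with 11 of 48 libraries at 0), against 8.23, 7.61 and 3.56 FPKM in control flowers. Its difference was -1.33 with a 95% interval of -2.58 to -0.09 (limma adjusted p = 0.176). GLYMA_13G013800, with its uncertain estimates, had a difference of -1.57 with a 95% interval of -3.37 to 0.23.

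**Figure D4:**
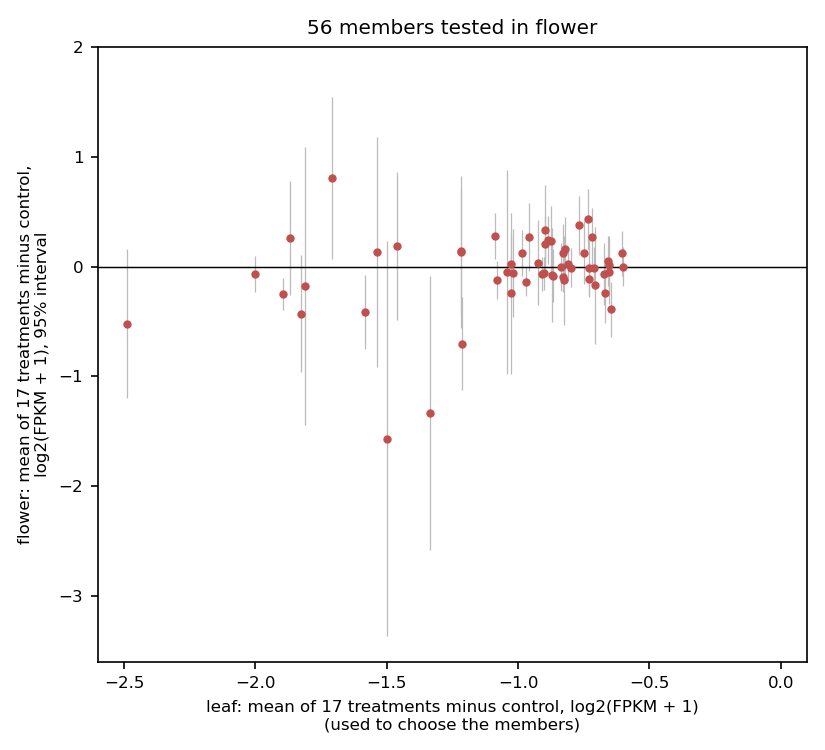
Mean of 17 treatments minus control on the log2(FPKM + 1) scale for the 56 genes tested in flower, with flower on the y axis (points with 95% intervals from limma) and leaf on the x axis. The leaf axis was used to choose the genes; in flower the points lie around 0, with a median of -0.01, and the lowest is GLYMA_13G013800 at -1.57.

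Of the 56 genes, 3 had all 17 flower treatment means below the control, beside 4.51% of all flower features, and 4 had all of them above it, beside 7.49%. The first are GLYMA_12G143500, GLYMA_11G162500 and GLYMA_13G225800. The others are GLYMA_17G249800, GLYMA_06G157500, GLYMA_13G085100 and GLYMA_14G167000. The most extreme of these was GLYMA_17G249800, with 6.88 to 51.04 FPKM in stressed flowers (median 13.4), against 7.78, 6.99 and 10.4 FPKM in control flowers, and 39 of 48 stressed libraries above all controls. In no gene of the 56 did the 3 flower controls lie above all 48 stressed libraries, beside 0.166% of all flower features.

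Each treatment was then set against the flower control. The 17 comparisons share the 3 flower control libraries and are given side by side. Over all of them the genes gave 39 calls lower (4.10% of 952 tests) and 30 calls higher (3.15%) at a limma adjusted p under 0.05, whereas over all features 3.68% of tests were lower and 5.85% higher. Under median-ratio scaling the genes gave 47 lower and 19 higher, and all features 4.83% and 4.77%, so the excess of higher calls over all features depended on the scaling. The counts also depended on the libraries, with 3 to 36 lower and 2 to 40 higher when each replicate number was left out, and 19 to 27 and 10 to 25 when each flower control was. No call in any comparison was made for 28 of the 56 genes (50%), beside 48.4% of all features. At least 1 call lower was made for 13 genes (23.2%, beside 22.7%) and at least 1 higher for 17 genes (30.4%, beside 31.6%). Of these, 11 genes had only lower calls, 15 had only higher calls and 2, GLYMA_03G050100 and GLYMA_19G102700, had both. In the full fit these shares of genes lie near those of flower features at large. The share of tests called higher was 3.15% beside 5.85%. That gap rests on a count that ran from 2 to 40 when each replicate number was left out. The tests also share the flower controls, so nothing is read from the gap.

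The calls were uneven across treatments, as they were over all features. Cadmium alone had the most, with 7 genes lower (background 11.4%) and 9 higher (background 18.8%). Under median-ratio scaling the higher count was 4, and of all 33792 features 5314 were lower and 4667 higher. Acidity alone, in which n = 2, had 6 lower (background 2.16%) and 3 higher (background 4.52%). The 6 include GLYMA_03G050100, GLYMA_01G124500 and GLYMA_07G155200, whose treatment means moved together, so they are not separate observations. Acidity with water deficit had 2 lower (8.03%) and 6 higher (13.0%), and the 5-stress combination 2 lower (6.22%) and 5 higher (11.4%). Salinity had 2 lower (2.12%) and 0 higher (2.40%). Water deficit, in which n = 2, had 1 lower (3.02%) and 2 higher (4.95%), and low phosphate 2 lower (1.11%) and 1 higher (2.24%). Among the remaining pairs, salinity with acidity had 2 lower (3.60%) and 1 higher (6.68%), salinity with water deficit 3 lower (1.74%) and 0 higher (2.91%), and salinity with low phosphate 1 lower (1.10%) and 0 higher (0.775%). Acidity with low phosphate had 0 lower (2.20%) and 1 higher (3.93%), and water deficit with low phosphate 1 lower (2.66%) and 0 higher (2.72%). The triple without low phosphate had 3 lower (3.81%) and 0 higher (4.06%), that without water deficit 2 lower (3.55%) and 1 higher (5.99%), that without acidity 2 lower (4.35%) and 1 higher (6.90%), and that without salinity 3 lower (4.31%) and 0 higher (5.79%). The 4-stress combination, in which n = 2, had 0 calls lower (1.21%) and 0 higher (2.27%) by limma, and 6 genes had an unadjusted p under 0.05.

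**Figure D5:**
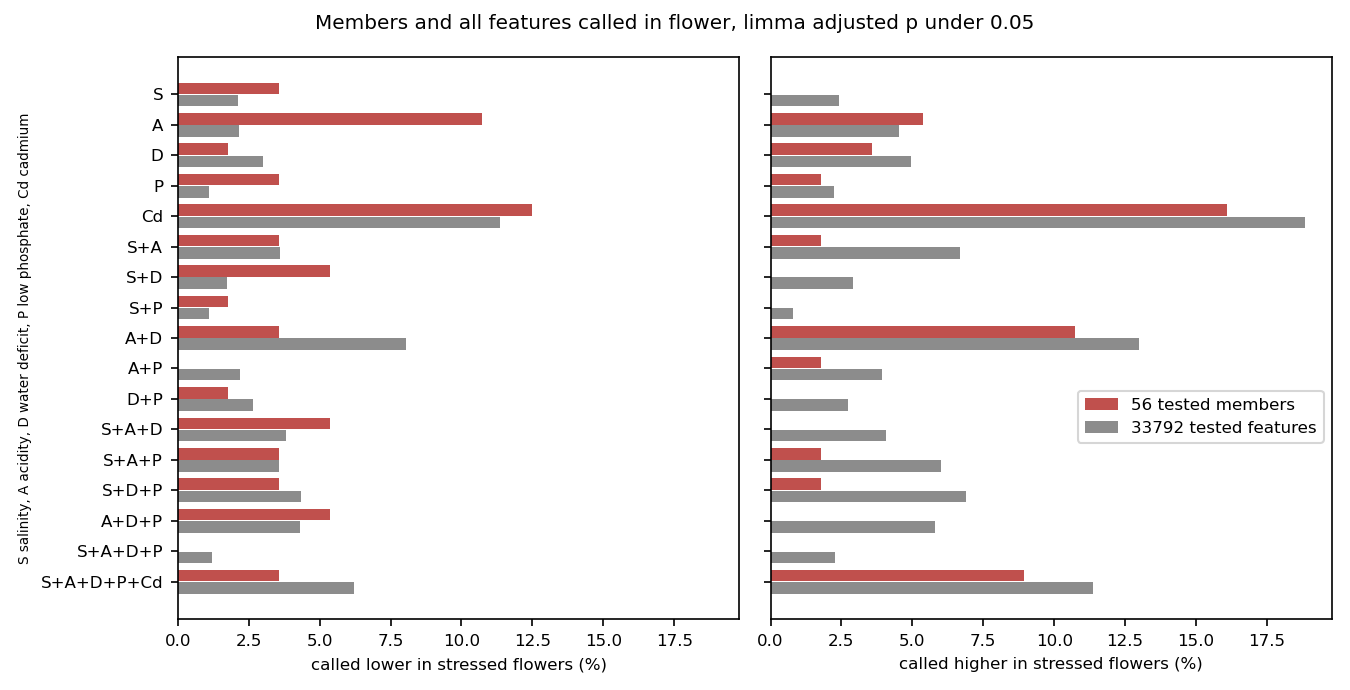
Share of the 56 tested genes (red) and of all 33792 tested flower features (grey) called lower (left) and higher (right) in stressed flowers against control flowers, for each of 17 treatments. Acidity alone (2 libraries) is where the share called lower lies furthest above the background, with 6 genes beside 2.16% of features. In 7 of the 17 treatments no gene is called higher.

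The 3 most abundant genes made 15 of the 39 calls lower. GLYMA_03G050100 was called lower in 5 single treatments or pairs and higher in 2 combinations. Under water deficit it had 19.98 and 19.4 FPKM in flowers, against 30.7, 32.4 and 34.4 FPKM in control flowers (log2 difference -0.69, limma adjusted p = 1.92e-04). Under low phosphate it had 23.1, 19.5 and 20.2 FPKM (-0.61, limma adjusted p = 0.00193) and under acidity 22.0 and 24.7 FPKM (-0.46, limma adjusted p = 0.0149). When acidity and low phosphate were combined, it had 46.2, 48.6 and 50.2 FPKM, above all control flowers (0.56, limma adjusted p = 7.89e-04). In leaves the same combination had 49.9, 54.9 and 43.8 FPKM, below acidity alone at 241, 240 and 266 FPKM and low phosphate alone at 166, 165 and 158 FPKM. Over all 17 treatments its flower difference was -0.07 (95% interval -0.23 to 0.09, limma adjusted p = 0.653), with 9 treatment means below the control and the others above it. The effect of low phosphate with acidity minus that without acidity, a contrast chosen after these values were seen, was called higher in 4 of the 56 genes (background 0.355%) and lower in 0 (background 0.802%). GLYMA_03G050100, whose values led to the contrast, is among the 4. So are GLYMA_07G155200 and GLYMA_01G124500, whose treatment means moved together with it. The 4 are thus not separate observations, and nothing is read from their count.

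GLYMA_01G124500 was called lower in 6 flower comparisons and higher in none. The largest of these was salinity with water deficit, with 35.8, 28.7 and 32.6 FPKM against 53.9, 49.1 and 44.8 FPKM in control flowers (-0.59, limma adjusted p = 1.41e-04). GLYMA_07G155200 was called lower in 4 and higher in none. It had 47.2 and 60.2 FPKM under acidity, against 69.7, 71.7 and 74.5 FPKM in control flowers (-0.43, limma adjusted p = 0.00485), and 56.2, 55.0 and 51.9 FPKM under salinity, acidity and water deficit (-0.40, limma adjusted p = 0.00268). The flower changes of both are well under 1 on the log2 scale. GLYMA_08G209900 had no call lower and 3 calls higher. Under cadmium it had 48.2, 42.5 and 54.0 FPKM in flowers, against 32.1, 26.1 and 27.2 FPKM in control flowers (0.74, limma adjusted p = 0.00676).

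Larger single changes in flower belonged to genes of lower abundance. The largest called were those of GLYMA_13G013800, whose estimates are uncertain, lower under acidity and water deficit (-3.47, SE 1.21, limma adjusted p = 0.0392), and of GLYMA_17G249800, which rests on 1 leaf control, higher under water deficit (1.84, SE 0.56, limma adjusted p = 0.0351). GLYMA_13G013800 had 9.07e-05, 1.40 and 4.98e-05 FPKM there, against 10.2, 20.96 and 12.2 FPKM in control flowers, and GLYMA_17G249800 had 51.04 and 20.1 FPKM, against 7.78, 6.99 and 10.4 FPKM. GLYMA_19G102700 had 5.57, 7.13 and 7.85 FPKM in flowers under salinity and acidity, against 25.7, 20.3 and 23.1 FPKM in control flowers (-1.62, SE 0.23, limma adjusted p = 3.12e-06). Under acidity and water deficit it had 47.8, 31.7 and 38.03 FPKM (0.73, SE 0.23, limma adjusted p = 0.0209). The 2 treatments therefore lie on opposite sides of the control with no overlap, whereas in leaf the gene had 1.74, 1.79 and 2.07 FPKM under salinity and acidity and 3.17, 3.81 and 3.10 FPKM under acidity and water deficit, against 10.6 and 9.92 FPKM in control leaves. GLYMA_11G162500 had 1.60, 0.956 and 0.620 FPKM in flowers under cadmium, against 3.00, 5.49 and 5.68 FPKM in control flowers (-1.46, SE 0.29, limma adjusted p = 1.78e-04). Called higher, GLYMA_09G221000 had a difference of 1.27 under cadmium (SE 0.28, limma adjusted p = 6.79e-04). Its control flowers had 0.522, 0.544 and 0.768 FPKM, and its mean over the flower libraries was 1.09 FPKM. The gene thus passed the filter of 1 FPKM only through stressed libraries, and nothing is read from its call. It was named after its values were seen.

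The complete factorial without cadmium gives effects that use the control as only 1 of 8 groups without a stress. The main effect of water deficit in flower, the mean of the 8 groups with it minus that of the 8 without it, was called lower in 8 of the 56 genes (background 10.4%) and higher in 3 (background 10.4%). The main effect of low phosphate was lower in 1 (2.20%) and higher in 5 (2.03%), that of acidity lower in 2 (5.10%) and higher in 1 (7.58%), and that of salinity lower in 0 (2.25%) and higher in 1 (1.74%). The 5 genes higher with low phosphate include all 3 of the most abundant: GLYMA_03G050100 at 0.41 (SE 0.039, limma adjusted p = 1.26e-08), GLYMA_07G155200 at 0.24 (SE 0.034, limma adjusted p = 1.90e-05) and GLYMA_01G124500 at 0.19 (SE 0.033, limma adjusted p = 4.85e-04). The treatment means of these 3 moved together, so they are not separate observations. Low phosphate alone minus control was below 0 in all 3: it was -0.61 in GLYMA_03G050100, called lower above, -0.08 in GLYMA_07G155200 (limma adjusted p = 0.620) and -0.09 in GLYMA_01G124500 (limma adjusted p = 0.653), so the main effect averages unlike effects. With each replicate number left out, the 6 calls for low phosphate became 2 to 4 and the salinity call became 0. The largest effect of water deficit among those called lower was that of GLYMA_15G247800, at -0.38 (SE 0.097, limma adjusted p = 0.00345), and among those called higher it was that of GLYMA_19G102700, at 0.35 (SE 0.061, limma adjusted p = 4.88e-05). Both were singled out by the size of the effect after the values were seen. GLYMA_15G247800 lies at the filter of 1 FPKM, with a mean of 1.02 FPKM over the flower libraries. Its control flowers had 1.02, 1.53 and 0.775 FPKM. Adding cadmium to the 4 stresses, a comparison without control libraries, gave 0 calls among the 56 genes by limma, beside 0.201% of features lower and 0.302% higher, with 3 genes at an unadjusted p under 0.05.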

How the data were processed

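RNA-seq of leaf and flower gave 1 table per tissue. The values are FPKM that the authors computed and deposited; HISAT2 2.2.1 is named per the submitters' processing notes, with no role given, and the counting tool, genome build and annotation are not given in the sources used here. Sums of FPKM per library were 617269 to 713376 in leaf and 611857 to 680482 in flower, so total read numbers are unknown and no counting interval was computed. Each column was checked against the mean of the others of its group. In 4 columns (leaf control replicate 3 and replicate 1 of flower acidity, water deficit and the 4-stress combination) over 99% of features above 0 equalled that mean within a relative 0.0001, and these were left out. No column was outside the sample labels (0 columns).

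For leaf, 28355 GLYMA features averaged 1 FPKM or more, and 351 with both 0 and at least 10 FPKM inside a group were dropped. In flower, features averaging 1 FPKM or more were fitted with limma 3.58.1 (R 4.3.3, trend and robust) on log2(FPKM + 1), all 18 groups together or the 16 of the factorial, with Benjamini-Hochberg adjustment over all features and a call at an adjusted p under 0.05. This scale understates the change of low genes. The fit was checked on simulated data. Scripts ran in Python 3.11.15 with numpy 2.4.6 and pandas 2.3.3; matplotlib 3.10.9 drew the plots. The tissues were normalized separately, so levels were not compared between them. Replicates are pools of plants, and nothing in the labels says that they came from separate growths, so p-values measure only the spread between these samples.

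The genes, lists and rules were chosen with earlier results of these data known. Genes named were the 12 highest scores, those called in the flower mean, 3 on each side of the limit and the 4 highest control levels; others are marked. Of the IDs, 0 matched the gene table used (59048 entries, assembly Glycine_max_v4.0), so planned keyword lists and tissue markers had no members and the labelled tissue was not checked by markers. Alternatives tried were a pseudocount of 0.1, another filter on low values, median-ratio scaling, all columns, the replicate number as a block, fits of only the treatment with the control, each replicate or control left out, and for leaf each control alone, all 3 control columns, rows with 0 and high values kept, and no cadmium treatments.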

Additional observations from a re-analysis of the deposited data

Results flagged for a closer look

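In flower, the low phosphate effect with acidity (both stresses minus acidity) was set against the effect without it (low phosphate minus control). This contrast was chosen after the values of GLYMA_03G050100 were seen, so the call of that gene is no separate support. The difference of the effects was tested with limma, adjusted over 33792 features, of which 0.355% were called higher and 0.802% lower. It was 1.63 for GLYMA_03G050100 (SE 0.16, limma adjusted p = 1.79e-07, 0.0108 at the highest under 11 alternatives). For GLYMA_07G155200 it was 0.69 (SE 0.13, limma adjusted p = 0.00357, up to 0.585 under the alternatives). For GLYMA_01G124500 it was 0.65 (SE 0.15, limma adjusted p = 0.0207, up to 0.607), and for GLYMA_19G102700 it was 1.33 (SE 0.34, limma adjusted p = 0.0427, up to 0.543). The other 52 genes tested were not called. The treatment means of GLYMA_03G050100, GLYMA_07G155200 and GLYMA_01G124500 moved together, so these genes are not separate observations. GLYMA_03G050100 had 46.2, 48.6 and 50.2 FPKM with both stresses, 22.0 and 24.7 FPKM with acidity, 23.1, 19.5 and 20.2 FPKM with low phosphate, and 30.7, 32.4 and 34.4 FPKM in control flowers. Replicate 1 of acidity was left out as an average, so a fit without replicate 2 or 3 left 1 acidity library. The call of GLYMA_03G050100 held under all 11 alternatives, whereas the other 3 lost it when replicate 2 was left out.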

How the results depend on the processing

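None of the 4 flower mean differences called in the full fit changed direction, but 24 uncalled ones had both signs among the alternatives. The small median flower difference of the 56 genes (-0.01) became 0.04 without replicate 2, over the 57 genes tested there. It was 0.01 without flower control 2. Under median-ratio scaling the more common direction over all leaf genes turned. Membership of the 60 leaf genes was sensitive: 27 stayed with control 1 alone, 23 with control 2 alone, 12 with a leaf mean of at least 5 FPKM, 20 with no filter, 37 with rows of 0 and high values kept, and 34 to 45 when each replicate of the treatments was left out. It held for 58 with all 3 control columns, 54 without cadmium treatments and 52 with a pseudocount of 0.1 or median-ratio scaling. Over the 17 flower comparisons, the 39 lower and 30 higher calls became 47 lower and 19 higher under median-ratio scaling. Leaving out each replicate gave 3 to 36 lower and 2 to 40 higher, and each flower control 19 to 27 and 10 to 25. The lowest counts came without replicate 2, and low ones also without replicate 3. Replicate 1 of flower acidity, water deficit and the 4-stress combination was already left out as an average. These fits therefore left 1 library in each of those groups. Calls also fell for low phosphate alone, a group that kept more than 1 library, among all features tested. The cause of the drop was not tested. Over all features, too, the calls on the flower mean were fewer in these fits than in the full fit. On the flower mean, the 3 lower and 1 higher became 0 to 1 and 0 to 2 when a replicate or a control was left out. With all deposited columns 3 genes were higher, 3 were called for the main effect of salinity (1 in the full fit) and 5 for acidity (3). Leaving out the 5 genes that rest on 1 control gave 0 higher, a set chosen after seeing the data. For cadmium on top of 4 stresses, 0 became 0 to 2 (0 without a control). With each replicate left out, calls on main effects were 0 for salinity, 2 to 4 for acidity, 6 to 9 for water deficit (11) and 2 to 4 for low phosphate (6). With each control left out they were 1 to 2, 3, 9 to 10 and 5 to 6. With the replicate number as a block there were 41 lower and 28 higher calls, and 2 for salinity. The numbers did not pair the samples: over 411 same-numbered pairs the median correlation of deviations was 0.0002 (range -0.26 to 0.30). Of 117 summary counts under an alternative, 76 stayed within 1.5 times the reported count. Of 613 values of single genes, 590 kept their side of the threshold, 19 lost it and 4 gained it. Depth is unknown, and 30 of 60 genes lie under 5 FPKM in control leaves.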
